A study of Homo sapiens with 4 samples.

Results

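To describe how far replicate cultures of the same experiment differed from each other, the 2 RNA-seq libraries labelled replicate 1 were compared with the 2 labelled replicate 2, which together are all 4 libraries of the series. The members were taken from the replicate number in the sample titles: replicate 1 holds 1 siNC and 1 siLINC01186 library, and replicate 2 holds the same pair. All 4 cultures were labelled HepG2, an established line from a human hepatic tumour. They were transfected with the control siRNA siNC or with an siRNA that targets LINC01186, a long noncoding RNA that the study also calls SALIS. After transfection the cells were kept without serum and then returned to medium with serum, and no genotype, drug or time point differed between the libraries by their labels. By the study's own description the biological repeats received the same siNC but different oligos against LINC01186, and the labels do not say which oligo a library received. The siNC pair therefore differed by replicate alone, whereas in the siLINC01186 pair the replicate and the oligo cannot be told apart. Nothing in the labels gives a date, passage or day for either replicate number.

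Both siRNAs of the study are shown because they mark what else changes between the replicates in the siLINC01186 pair. Each is written 5′ to 3′, with bases 2 to 8, the seed of a guide of that sequence, in capitals. Whether the listed strand is the guide is not stated, and the capitals differ between the oligos.
siSALIS_01: aGGGCTCTattgggcaaaaa
siSALIS_02: cTAAGTGActcactgcatc

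Cultured cancer cells adjust many transcripts to their density, to serum and to nutrients. Heat-shock chaperones fold proteins in the cytosol, serum response factor (SRF) drives actin genes and immediate early genes when serum returns, and hypoxia-inducible factors (HIF) raise a set of genes when oxygen falls. p53 targets restrain the cell cycle, interferon-stimulated genes respond to foreign nucleic acid among other triggers, and gluconeogenic genes are held down by insulin.

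The libraries held between 14968958 and 17297245 counts, and 3 counts corresponded to between 0.169 and 0.210 CPM (the count scaled to a library of 1000000 after TMM normalization), a floor that covers counting error only. LINC01186, the targeted gene, had 15 counts in siNC replicate 1, 12 in siLINC01186 replicate 1, 14 in siNC replicate 2 and 14 in siLINC01186 replicate 2. The counts overlapped, at under 1 CPM in every library. The replicates did not differ in LINC01186 past the test (log2 difference 0.07 ± 0.53 SE, adjusted p = 0.964). A log2 difference throughout is replicate 1 minus replicate 2 on the scale of normalized counts, so a value above 0 means a higher level in replicate 1.

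The cell type label was checked against 12 hepatocyte marker genes, and most of those that define the line were at or near 0. ALB, which encodes albumin, had 0, 0, 15 and 14 counts in siNC replicate 1, siLINC01186 replicate 1, siNC replicate 2 and siLINC01186 replicate 2, an order kept in all sentences that list 4 values. AFP, which encodes alpha-fetoprotein, had 2, 4, 6 and 16 counts, and TTR, a thyroid hormone carrier, had 0, 0, 0 and 3. The keratin genes KRT8 and KRT18 were abundant, with at least 20436 and 12963 counts in every library. HNF4A, a liver transcription factor gene, had 79, 83, 161 and 188 counts. Levels of this kind go against a label of HepG2, in which ALB, AFP and APOA1 are known to be abundant, so the cultures are called here by their labels only. The study's supplement holds a DNA profile of its HepG2 stock that was matched to that line, and whether the sequenced cultures came from the profiled cells is not stated.

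**Figure D1:**
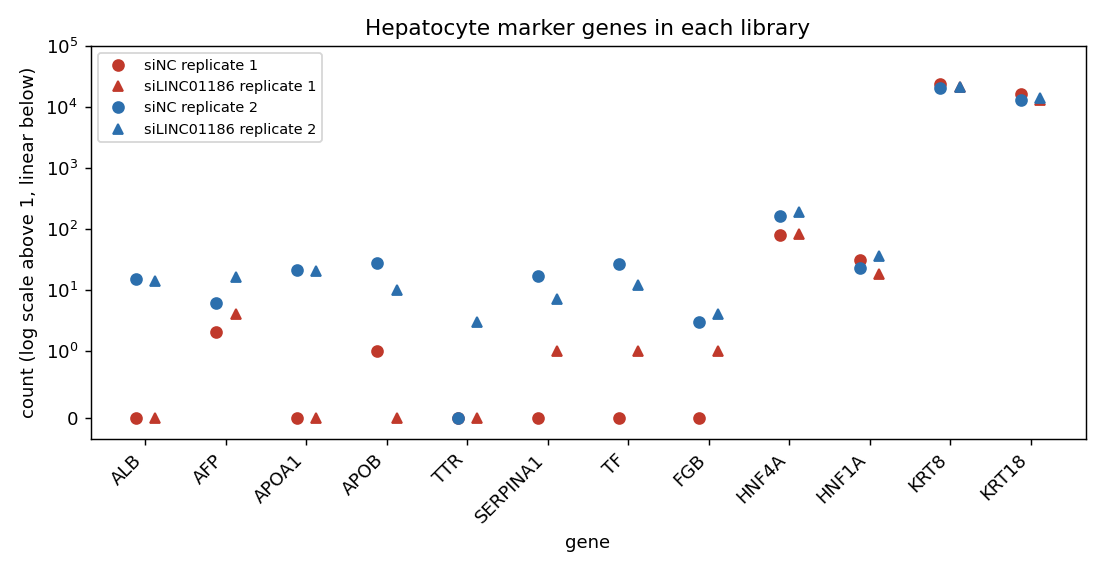
Counts of 12 hepatocyte marker genes (x axis) in each of the 4 libraries; the y axis is linear below 1 and logarithmic above it. Circles are siNC and triangles siLINC01186, red replicate 1 and blue replicate 2; ALB and APOA1 sit at 0 in both replicate 1 libraries, whereas KRT8 and KRT18 lie near the top of the plot in all 4.

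The few counts of several liver genes came almost only from replicate 2. ALB was at least 4.41-fold lower in replicate 1, and APOA1, the main protein of high-density lipoprotein, with 0, 0, 21 and 20 counts, was at least 6.24-fold lower, each against a floor of 3 counts per library. APOB had 1, 0, 27 and 10 counts, TF, which encodes transferrin, 0, 1, 26 and 12, and SERPINA1, which encodes alpha-1-antitrypsin, 0, 1, 17 and 7. These 5 genes reached the count minimum through replicate 2 alone, so their order between the replicates is described and not used as support. Of the 11 hepatocyte markers tested 6, and of the 13 plasma carrier genes tested 5, passed the count minimum only through replicate 2, so no count or median of these lists is used. The 8 fibroblast markers summed to 57.3, 54.7, 91.6 and 91.7 CPM, the 7 endothelial markers to 2.81, 4.41, 4.65 and 5.96 CPM, and the 8 leukocyte markers to 54.3, 60.0, 62.1 and 58.1 CPM. The part of other cells in any result was not tested, and in bulk RNA fewer cells of a type and less RNA per cell cannot be told apart.

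Among the 23942 genes that reached a total of 5 counts across the libraries, 4191 differed between the replicates with the siRNA as a block (edgeR quasi-likelihood test, adjusted p under 0.05), which is 17.5% of those tested. Of these, 2286 (9.55%) were higher in replicate 1 and 1905 (7.96%) were higher in replicate 2, and the median difference of all genes tested was -0.02. Most differences were moderate: 203 genes higher in replicate 1 and 559 higher in replicate 2 had an absolute log2 difference of at least 1. Calls were more frequent among genes with a mean log2 CPM of at least 3, where 18.9% were higher in replicate 1 and 10.2% higher in replicate 2. The counts of calls in the lists below are to be read against these shares. The number of calls depended on the fit. With this count minimum edgeR gave every gene the same spread about the trend (the prior degrees of freedom were infinite), so a gene whose siNC and siLINC01186 pairs disagreed could still be called. A stricter set of genes, defined after the data were seen, is given beside it, those also called without the block, by DESeq2 and under edgeR's own expression filter. The stricter set holds 604 genes higher in replicate 1 (2.52%) and 312 higher in replicate 2 (1.3%), and is called here the genes past all 4 fits. With 2 libraries a side, lack of overlap is common. It held for 25 of 43 DNA replication genes and 17 of 26 cholesterol genes, with 7 called in each list. It held for 7 of 78 cytoplasmic ribosomal protein genes, with 1 called. Wherever it is given below, lack of overlap describes the named genes and is not used as support.

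The replicate number was the main axis along which the libraries separated. Over 10759 genes with a mean log2 CPM of at least 3, the replicate contrast took 67.1% of the sum of squares, the siRNA contrast 19.7% and the remainder 13.2%. The siNC and the siLINC01186 differences share no library, and across these genes, which are not independent replicates, they correlated with Pearson's r = 0.673, and 75.9% had the same sign. Differences moved with the level of a gene. Among protein-coding genes in this range the median difference was -0.07 in the lowest of 5 equal bins by mean CPM and 0.15 in the highest, and it was 0.17 in the highest of 5 bins by GC content. The part of level and GC content in single calls was not tested beyond the fit with level trend offsets given at the end.

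The genes that differed with the smallest adjusted p were as follows. On the side of replicate 1 they were ACTB, HSPA8, TFRC, LY6K, MAMDC4, FST, ACTG1, TNFRSF12A, CCDC78 and ODC1. On the side of replicate 2 they were F11R, the unnamed ENSG00000272068.1, PCK1, RN7SL2, USH1C, ANK3, TXNIP, SLC29A4, TJP3 and NEURL1B. All were past all 4 fits except TFRC. TFRC, the transferrin receptor gene that brings iron into cells, had 505, 490, 344 and 121 CPM, so its difference was 0.55 in siNC and 2.02 in siLINC01186. The low value of siLINC01186 replicate 2 sets most of it.

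**Figure D2:**
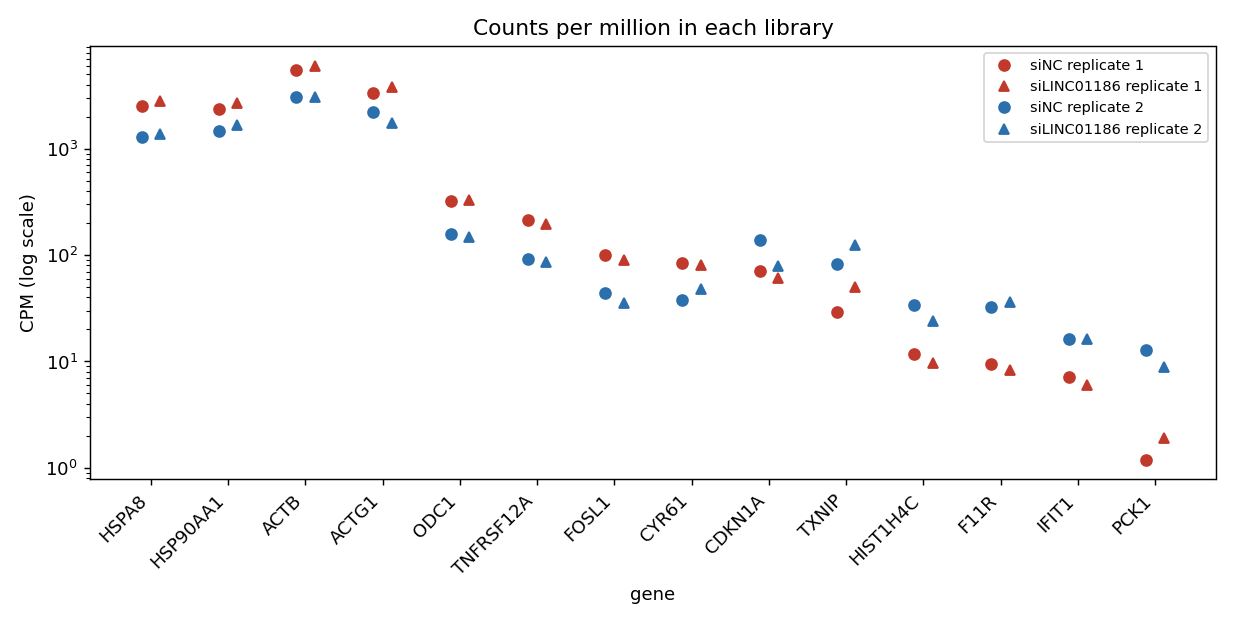
CPM (y axis, log scale) of 14 genes (x axis) in each library, with circles for siNC, triangles for siLINC01186, red for replicate 1 and blue for replicate 2. Red points lie above blue ones from HSPA8 to CYR61 and below them from CDKN1A to PCK1. The 14 genes were picked from those called, so the lack of overlap follows from that choice.

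Heat-shock chaperones were higher in replicate 1 almost throughout. Of 20 members tested 17 were higher in replicate 1, 0 were higher in replicate 2 and 3 did not pass the test, with a median difference of 0.45 against -0.02 for all genes, and 9 were past all 4 fits. HSPA8, the constitutive Hsp70 (hg19 chromosome 11, 122928200 to 122933043, minus strand), had 2534, 2786, 1293 and 1393 CPM. Both replicate 1 libraries lay above both replicate 2 libraries, and the difference was 0.99 ± 0.08 (SE, adjusted p = 3.65e-32). HSP90AA1, the inducible Hsp90, had 2353, 2711, 1485 and 1672 CPM, a difference of 0.68 ± 0.08 (adjusted p = 7.85e-16). HSP90AB1, its constitutive counterpart, differed by 0.50 and HSPD1, the mitochondrial chaperonin, by 0.59, and neither overlapped between replicates. The stress-inducible HSPA1A (0.58) and the co-chaperone gene STIP1 (0.48) had the widest gap between siRNAs among members with a mean log2 CPM of at least 3, 0.35 and 0.81 for HSPA1A and 0.29 and 0.66 for STIP1 in siNC and siLINC01186, and still kept 1 direction. HSPA1A shares reads with its near-identical copy HSPA1B, so its level is uncertain. The list median was 0.40 within siNC and 0.49 within siLINC01186.

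Heat-shock factor binds inverted repeats of GAA, written here as GAANNTTC and TTCNNGAA, each of which reads the same on both strands. The promoters of HSPA8 and of CHORDC1, a Hsp90 co-chaperone gene named because it held the motif, carried both, overlapping into 3 alternating units within the 250 bases before the gene start (RefSeq, GRCh38.p14). In the stretches below, 30 bases of the gene's strand, the 3 units are in capitals.
HSPA8, chr11:123062345-123062374, minus strand: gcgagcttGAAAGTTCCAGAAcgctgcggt
CHORDC1, chr11:90223088-90223117, minus strand: cgcgaccgGAAAATTCGCGAAggttcctga
Such 3-unit matches were found in 2 of the 17 heat-shock promoters that were matched (11.8%) and in 120 of 27305 promoters (0.439%). GAANNTTC alone was in 6 of the 17 (35.3%, against 5.85% of all) and TTCNNGAA in 2 (11.8%, against 6.72%). CHORDC1 had 151, 169, 112 and 124 CPM and was higher in replicate 1 by 0.43 ± 0.11 (adjusted p = 0.00132). A match describes the letters only.

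Chaperones of the endoplasmic reticulum differed in the same direction by less. All 21 had a mean log2 CPM of at least 3, where 18.9% of genes were called higher in replicate 1. In the highest of 5 bins by mean CPM, 688 of 2026 protein-coding genes were higher in replicate 1, with a median of 0.15. The part of level in this list was not tested. Of 21 members 9 were higher and 1 was lower in replicate 1, with a median of 0.19, and 1 gene was past all 4 fits. That gene was HSPA5, the main Hsp70 of this compartment, with 1496, 1527, 1076 and 1086 CPM, a difference of 0.48 ± 0.08 (adjusted p = 2.91e-07). The levels did not overlap. DNAJB11, its co-chaperone, differed by 0.48, and ERN1, the stress sensor that splices XBP1, was lower in replicate 1 by 0.69 (a difference of -0.69). CANX, a lectin chaperone, had 966, 935, 819 and 413 CPM, and its difference of 0.24 in siNC and 1.18 in siLINC01186 rested mainly on 1 library, siLINC01186 replicate 2.

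Actin genes and other SRF targets were the next group. Of 18 members 10 were higher and 1 was lower in replicate 1, with a median of 0.33, and 5 of the higher genes were past all 4 fits. ACTB, cytoplasmic beta-actin (hg19 chromosome 7, 5566779 to 5570232, minus strand), had 5538, 6053, 3038 and 3068 CPM. The replicates did not overlap and the difference was 0.92 ± 0.07 (adjusted p = 8.42e-36), the smallest adjusted p of the whole comparison. ACTG1, gamma-actin, had 3345, 3818, 2237 and 1744 CPM (0.86 ± 0.07, adjusted p = 7.04e-27), and the focal adhesion gene ZYX had 388, 370, 257 and 209 CPM (0.71). ACTB and ACTG1 have many processed copies in the genome, among which reads could be split. TPM4, a tropomyosin gene, was higher in replicate 1 within each siRNA (464 against 297 and 730 against 556 CPM) but overlapped between replicates, since its level also differed between siRNAs. The member that went the other way was ACTA2, smooth muscle actin, with 3.34, 2.59, 5.14 and 8.61 CPM (-1.17 ± 0.24, adjusted p = 3.26e-05).

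The SRF binding site, the CArG box, reads CC, then 6 bases that are A or T, then GG. It was found in the 250 bases before the gene start in 6 of 15 matched promoters of the list (40%) and in 312 of all 27305 (1.14%). The list was put together from actin genes and SRF targets, so its share is in part fixed by that choice. A match describes the letters only, and the part of SRF in the replicate difference was not tested. The box is in capitals in the following 30-base stretches of the gene's strand (RefSeq, GRCh38.p14), shown for members whose transcripts were higher in replicate 1.
ACTG1, chr17:81512874-81512903, minus strand: ggaaagatcgCCATATATGGacatgttctg
CNN2, chr19:1026509-1026538, plus strand: cgcctccaggCCTTATAAGGacatttgcgc
TPM4, chr19:16067355-16067384, plus strand: aatcctaggtCCAAATAAGGcgagggctgc
SRF, chr6:43171239-43171268, plus strand: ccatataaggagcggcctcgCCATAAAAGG
FLNA, chrX:154374709-154374738, minus strand: ggcaattttaCCAATTAAGGctttctcgcc
CNN2, a calponin gene, FLNA, a filamin gene, and SRF itself are named for the box and were higher in replicate 1 by 0.44, 0.27 and 0.64. FHL2, the other member with a box, did not pass the test (0.20). In the SRF stretch the capitals mark the box nearest to the gene start, and the stretch opens with a further match in small letters. EGR1, the immediate early gene that held a box too, had 8.24, 16.0, 16.2 and 8.89 CPM and did not pass the test (-0.06). Of 22 matched immediate early promoters 1 held it (4.55%).

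Immediate early genes were split between siRNAs. Of 31 members 10 were higher and 1 was lower in replicate 1, but the median was -0.07 within siNC and 0.33 within siLINC01186, and 1 gene in each direction was past all 4 fits. FOSL1, an AP-1 subunit gene, had 101, 90.1, 43.9 and 35.2 CPM, higher in replicate 1 without overlap (1.28 ± 0.13, adjusted p = 4.47e-21). BTG2, an antiproliferative gene that is also a p53 target, had 9.37, 12.5, 18.1 and 24.5 CPM (-0.96 ± 0.16, adjusted p = 2.19e-07). PHLDA1, induced by growth factors, was higher in replicate 1 by 0.50. YAP-TEAD targets, which follow cell spreading and density, moved in both directions, with 7 of 24 higher and 6 lower in replicate 1. CYR61, a secreted matrix protein gene, had 83.9, 81.2, 37.8 and 47.9 CPM (0.95 ± 0.13, adjusted p = 1.10e-11), and CTGF, NT5E and FJX1 were higher in replicate 1 by 0.75, 0.84 and 0.78. CCDC80, a matrix gene of the same list, had 12.1, 14.7, 23.1 and 28.9 CPM, on the other side (-0.96).

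ODC1, the first enzyme of polyamine synthesis, had 320, 331, 157 and 147 CPM (1.10 ± 0.10, adjusted p = 2.06e-22). CCND1, cyclin D1, had 344, 316, 232 and 132 CPM (0.91), and RRM2, a ribonucleotide reductase subunit, 256, 317, 171 and 179 CPM (0.71). None of the 3 genes overlapped between replicates. Of 43 DNA replication genes 7 were higher in replicate 1 and 0 were lower (median 0.17), CDC6 among them at 0.45, and RRM2 alone was past all 4 fits. All 43 had a mean log2 CPM of at least 3, where 18.9% of genes were called on that side, so the share of the list is no higher than the background. Of 40 mitotic genes 2 were higher and 5 were lower, with a median of 0.00, and CENPE, a kinetochore motor gene, was the member past all 4 fits (0.74). TNFRSF12A, the Fn14 receptor gene, had 212, 196, 91.9 and 86.1 CPM (1.20), and FST, the activin antagonist follistatin, 124, 125, 40.4 and 52.3 CPM (1.44). LY6K, a surface antigen gene, differed by 1.29.

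Wnt-related genes did not move as a group, with 4 of 15 higher and 2 lower in replicate 1. DKK1, a secreted Wnt antagonist gene, was higher by 0.85 and AXIN2, a feedback inhibitor, was lower (-0.49). Among 15 oncofetal genes HMGA2, a chromatin protein gene, was higher in replicate 1 (29.8, 28.9, 20.01 and 9.06 CPM, a difference of 1.09) and the stem cell factor gene SALL4 was lower (18.0, 18.6, 32.0 and 31.8 CPM, a difference of -0.80). Among cytoplasmic ribosomal protein genes 1 of 78, RPL35 at 0.32, passed the test, and the median was -0.02. Of 73 nuclear respiratory chain genes 2 were higher and 5 were lower (median -0.06). Of the 13 subunits encoded in mitochondrial DNA 3 were higher and 2 were lower, with ND1 at 0.45 and ND4 at -0.22, while mitochondrial counts took between 3.70% and 4.49% of each library.

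Amino acid, iron and antioxidant genes were mixed. SLC1A5, a glutamine transporter gene, had 349, 389, 241 and 247 CPM, higher in replicate 1 (0.60 ± 0.10, adjusted p = 2.04e-07). Of 27 targets of ATF4, the factor of amino acid shortage, 4 were higher and 5 were lower in replicate 1. Of the 27, 25 had a mean log2 CPM of at least 3, where 18.9% of genes were higher and 10.2% lower. The counts are near that background, so they are no result about the list. ATF5 (24.2, 23.0, 10.96 and 8.78 CPM, a difference of 1.26) and the cystine transporter gene SLC7A11 (0.66) were on the replicate 1 side, and CTH, which makes cysteine, was on the other (-0.69). Of 14 iron genes 6 were higher in replicate 1, with TFR2, the second transferrin receptor, at 0.79 without overlap. The 1 iron gene called lower, TF, reached the count minimum through replicate 2 alone, so it is described and not used as support. FTH1, ferritin heavy chain, had 5044, 6188, 4964 and 3338 CPM, so that its difference of 0.46 was 0.02 in siNC and 0.89 in siLINC01186. Of 26 NRF2 targets 3 were higher and 4 lower, the latter including the aldo-keto reductases AKR1C2 (-0.92) and AKR1C3 (-0.76), near-identical paralogs that can share reads, and HMOX1, heme oxygenase (-0.72). In the NRF2 list 24 genes had a mean log2 CPM of at least 3, and its counts are also near that background.

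On the replicate 2 side the gluconeogenic enzyme gene PCK1 (hg19 chromosome 20) had the widest difference among the genes with the smallest adjusted p. It had 1.19, 1.89, 12.9 and 8.95 CPM. Both replicate 1 libraries lay far below both replicate 2 libraries, and the difference was -2.82 ± 0.25 (adjusted p = 1.24e-26). Of 11 genes of gluconeogenesis and glycogen 4 were lower and 0 were higher in replicate 1 (median -0.43), among them pyruvate carboxylase PC (-0.43) and the coactivator gene PPARGC1A (-0.55), which were not past all 4 fits. TXNIP, an inhibitor of glucose uptake, had 29.5, 50.04, 82.6 and 125 CPM (-1.40 ± 0.13, adjusted p = 2.22e-25). INSR, the insulin receptor gene, was lower in replicate 1 by 0.51 (-0.51), and IGFBP4, which binds IGF, was higher by 0.45. Of 21 genes of fatty acid oxidation 2 were higher and 5 lower, with PPARA, a nuclear receptor gene that drives this pathway, at -0.63.

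Lipid synthesis genes that differed lay mostly on the replicate 2 side. Of 26 cholesterol genes 6 were lower and 1 was higher in replicate 1 (median -0.11). Of 19 fatty acid genes 5 were lower and 2 were higher (median 0.00), with SCD, stearoyl-CoA desaturase, at 700, 632, 959 and 843 CPM (-0.43) and ACACB, the mitochondrial acetyl-CoA carboxylase, at 33.0, 29.3, 54.6 and 61.0 CPM (-0.89). Both were lower in replicate 1 without overlap and were past all 4 fits.

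Interferon-stimulated genes, at low levels throughout, leaned to replicate 2. Of 40 members 11 were lower and 0 were higher in replicate 1, with a median of -0.34, and 2 were past all 4 fits. IFIT1, which binds foreign RNA ends, had 7.22, 6.02, 16.4 and 16.3 CPM. Its replicates did not overlap and differed by -1.31 ± 0.18 (adjusted p = 7.41e-11). ISG15, a ubiquitin-like protein gene, had 21.1, 27.1, 46.9 and 33.9 CPM (-0.74), and OASL (-1.06) and IFI6 (-0.76) passed the main test but not all 4 fits. RN7SL2, a copy of the signal recognition particle RNA, had 2788, 2981, 4951 and 5101 CPM (-0.80 ± 0.07, adjusted p = 1.48e-26), and RNAs of that class took 0.489%, 0.557%, 0.929% and 1.01% of the counts. The libraries were poly(A)-enriched, and the part of that step was not tested. Of 19 genes of NF-kappaB, which is often active with interferon, 5 were higher in replicate 1, RELB by 0.60 and NFKB1 by 0.52, 0 were lower and 14 did not pass the test. The list median was -0.13 within siNC and 0.26 within siLINC01186, and 0 members were past all 4 fits.

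p53 targets were lower in replicate 1 for 9 of 26 members and higher for 1 (median -0.31), with 3 of the lower genes past all 4 fits. CDKN1A, the cell cycle inhibitor p21, had 70.4, 61.1, 140 and 79.4 CPM (-0.69 ± 0.12, adjusted p = 5.61e-07). The replicates did not overlap, although siLINC01186 replicate 2 lay close to siNC replicate 1. DDB2, a DNA damage sensor gene, had 73.1, 62.7, 113 and 94.5 CPM (-0.61). The member on the other side was PLK3, a stress kinase gene (0.55). Among 25 apoptosis regulators 4 were higher and 3 lower in replicate 1. Of the 25, 20 had a mean log2 CPM of at least 3, where 18.9% of genes were higher and 10.2% lower. The counts of the list are near that background, so they are no result about the list. The antiapoptotic BCL2L1 had 116, 132, 76.6 and 87.6 CPM (0.60), whereas the proapoptotic BMF had 0.418, 1.05, 8.42 and 4.90 CPM (-3.18 ± 0.32, adjusted p = 1.58e-20).

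Mesenchymal and TGF-beta target genes differed in both directions. FN1, fibronectin, had 42.5, 52.4, 76.4 and 78.9 CPM (-0.72) and TGFBI 37.3, 38.0, 61.0 and 58.4 CPM (-0.67), both lower in replicate 1 without overlap. PMEPA1, a TGF-beta target gene, had 55.1, 53.8, 53.3 and 20.3 CPM and was higher in replicate 1 (0.70), by 0.05 in siNC and 1.40 in siLINC01186, and was not past all 4 fits. Of 20 genes in that list 6 were lower and 2 higher in replicate 1, with a median of -0.02. Of the 8 fibroblast markers 3 were lower and 0 higher, with PDGFRB, a growth factor receptor gene, at 6.93, 8.26, 14.7 and 24.4 CPM (-1.33) and COL1A1, a collagen gene, at 27.9, 23.3, 48.9 and 38.3 CPM (-0.76). Both genes are part of the summed fibroblast level given above. Complement C3 had 136, 175, 298 and 240 CPM (-0.79 ± 0.11, adjusted p = 2.07e-11). Of 15 acute-phase genes tested, C3 among them, 4 were lower in replicate 1, and 4 of the 15 had passed the count minimum through replicate 2 alone. Of 22 lysosome and autophagy genes 5 were lower and 3 higher, with the autophagy genes GABARAPL1 (-0.74) and WIPI1 (-0.89) past all 4 fits.

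**Figure D3:**
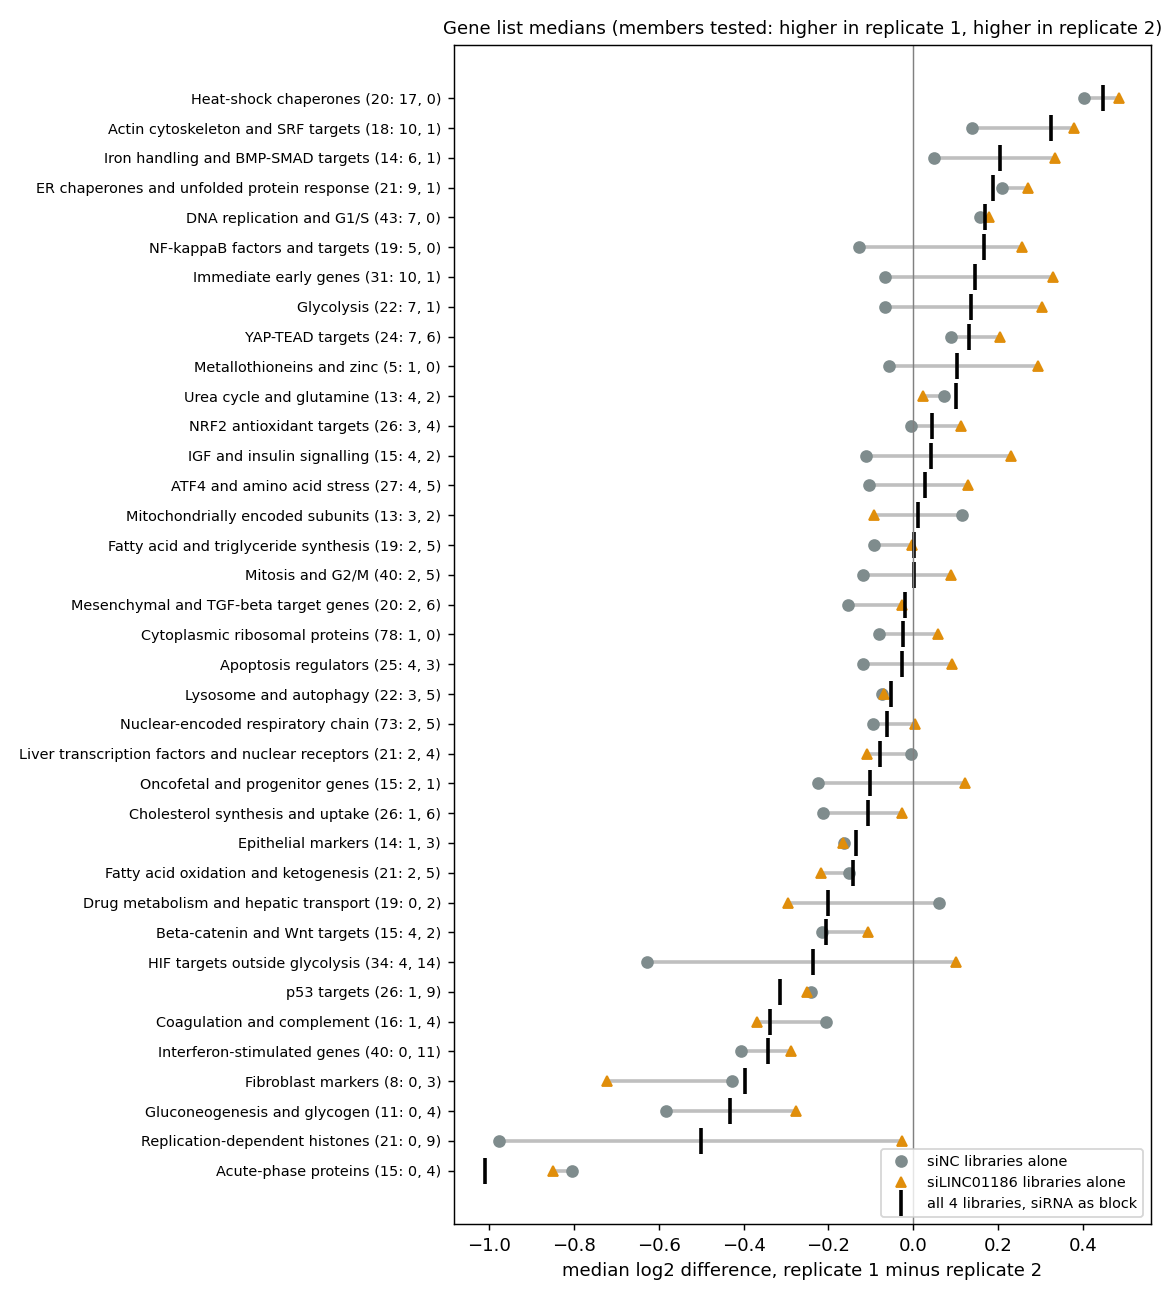
Median log2 difference (x axis, replicate 1 minus replicate 2) of 37 gene lists (y axis, with members tested, then members higher in replicate 1 and in replicate 2), leaving out 4 lists of low or mostly one-sided detection. Black bars are the fit over all 4 libraries, grey circles siNC alone and orange triangles siLINC01186 alone; heat-shock chaperones lie at 0.40 and 0.49, whereas HIF targets lie at -0.63 and 0.10.

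HIF targets and histones differed between replicates mainly within siNC. Of 34 HIF targets outside glycolysis 14 were lower and 4 higher in replicate 1, but the median was -0.63 within siNC and 0.10 within siLINC01186, and 4 genes were past all 4 fits. NDRG1, a stress-response gene raised by hypoxia, had 197, 588, 741 and 585 CPM. The low library was siNC replicate 1, the others overlapped, and the difference was -1.91 in siNC and 0.0051 in siLINC01186. CA9, carbonic anhydrase IX, had 16.5, 89.9, 83.8 and 83.8 CPM, with differences of -2.33 and 0.10, so again siNC replicate 1 alone stood apart. Both were called in the main fit (adjusted p = 8.98e-19 and 1.33e-12) and neither was past all 4 fits. BNIP3L, a mitophagy receptor gene (39.4, 63.9, 90.1 and 81.6 CPM, a difference of -0.77), and P4HA2, a collagen hydroxylase gene (29.3, 35.4, 53.5 and 57.1 CPM, a difference of -0.78), were lower in replicate 1 within each siRNA. STC2, a secreted glycoprotein gene, was higher in replicate 1 (0.62). Both siNC replicates received the same siRNA.

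**Figure D4:**
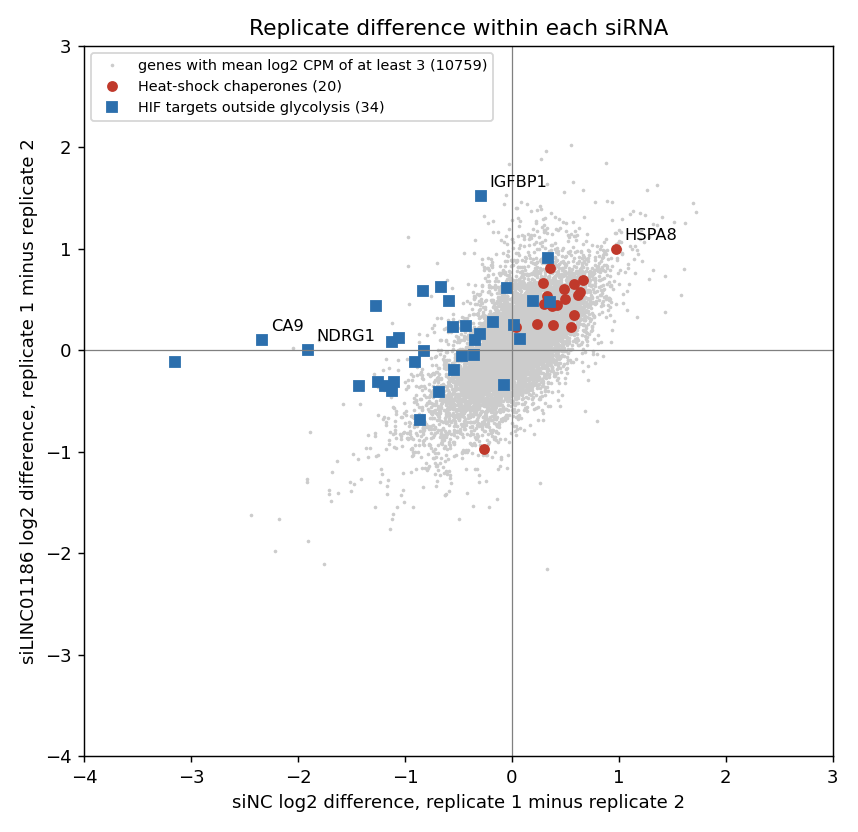
Log2 difference between replicates within siNC (x axis) against that within siLINC01186 (y axis) for 10759 genes with a mean log2 CPM of at least 3 (grey), the 20 heat-shock chaperones (red circles) and the 34 HIF targets (blue squares). Most chaperones lie in the upper right, whereas many HIF targets, NDRG1 and CA9 among them, extend to the left along the line of no difference within siLINC01186.

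Glycolytic genes also differed between the siRNA pairs. Of 22 members 7 were higher and 1 was lower in replicate 1, with a median of -0.07 within siNC and 0.30 within siLINC01186. Of the 22, 21 had a mean log2 CPM of at least 3, where 18.9% of genes were higher and 10.2% lower. In the highest of 5 bins by mean CPM, 688 of 2026 protein-coding genes were higher, with a median of 0.15, against 0.14 for this list. The part of level in this list was not tested. SLC16A3, a lactate exporter gene, had 587, 538, 453 and 365 CPM, without overlap, and was the member past all 4 fits (0.47). LDHA, lactate dehydrogenase, had 1279, 1546, 1297 and 958 CPM, with differences of -0.020 in siNC and 0.69 in siLINC01186, and PFKP, a phosphofructokinase gene, had 372, 390, 329 and 181 CPM (0.18 and 1.11). ALDOC, a brain-type aldolase gene, was lower in replicate 1 (-1.29 and -0.23).

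Replication-dependent histone genes, whose transcripts mostly lack poly(A) tails, summed to 133, 159, 250 and 159 CPM over 21 genes. The siNC replicate 2 library was the highest, and the siLINC01186 libraries were alike. Of the 21 genes 9 were lower and 0 higher in replicate 1, with medians of -0.98 within siNC and -0.03 within siLINC01186. HIST1H4C had 11.9, 9.59, 34.3 and 23.8 CPM (-1.42 ± 0.16, adjusted p = 1.08e-16), HIST1H2BC 7.46, 6.72, 28.0 and 11.8 CPM (-1.41) and HIST1H1C 23.6, 22.7, 51.8 and 29.2 CPM (-0.76), and these 3 were past all 4 fits. Histone genes are near-identical copies, so single values are uncertain.

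The replicate spread of IGFBP3, a binding protein of insulin-like growth factors on which the study turns, was wide. It had 66.6, 281, 161 and 207 CPM, so siNC replicate 1 was lowest and siLINC01186 replicate 1 highest. Within siNC the difference was -1.27 and within siLINC01186 0.44, and the blocked difference of -0.40 ± 0.11 was called (adjusted p = 0.00419) but was not past all 4 fits. IGFBP1, a related binding protein gene, had 17.1, 58.3, 20.9 and 20.2 CPM, with differences of -0.29 and 1.52, and here siLINC01186 replicate 1 alone stood apart.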

How the data were processed

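Poly(A) RNA of 4 cultures labelled HepG2 was sequenced as paired ends. The authors deposited raw counts per gene and TPM values for 44591 genes in each library. The submitters' processing notes name HISAT2, HISAT, TopHat2, Bowtie2 and hg19, whose roles are not given in the sources used here, and the counting strand is not stated. Counts were tested in R 4.3.3 with edgeR 4.0.16 (TMM, at least 5 counts over the 4 libraries, siRNA as block, quasi-likelihood test, Benjamini-Hochberg over all 23942 genes). The standard error is the difference over the square root of F. The fit leaves 1 residual degree of freedom, and its prior degrees of freedom were infinite. Its standard errors and p-values therefore rest on a spread shared by all genes, not on a gene's own spread between libraries, and cover these libraries only. The adjusted p of ACTB was 8.42e-36 in this edgeR fit, 9.43e-05 without the block and 0.00154 under edgeR's expression filter. The very small values above are to be read with that limit. Differences within 1 siRNA are log2 CPM with a prior count of 2, without a test. DESeq2 1.42.0 and limma 3.58.1 gave alternatives. The procedures were tested on simulated data. Named genes are the 10 smallest adjusted p in each direction, up to 4 called members per list and direction, the 2 members with the widest gap between siRNAs, LINC01186 and IGFBP3. Results for some genes that this covers are not reported here. Members and lists were chosen with earlier results of these data known.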

Additional observations from a re-analysis of the deposited data

Results flagged for a closer look

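Some genes and lists differed between the replicates in opposite directions in the siNC and the siLINC01186 pair, each by at least 0.1 on the log2 scale, with replicate 1 minus replicate 2 as the sign. With 1 library a side, whether the 2 pairs differ was not tested. Among genes, CA9 was at -2.33 in siNC and 0.10 in siLINC01186, IGFBP3 at -1.27 and 0.44, EGR1 at -0.97 and 0.84, and IGFBP1 at -0.29 and 1.52. Among list medians, HIF targets outside glycolysis were at -0.63 and 0.10, NF-kappaB factors and targets at -0.13 and 0.26, oncofetal genes at -0.22 and 0.12, genes of IGF and insulin signalling at -0.11 and 0.23, and ATF4 targets at -0.10 and 0.13. The siNC value is the negative one in all of these. Groups of 2 are too small for a test of single outlying libraries.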

How the results depend on the processing

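No paired analysis was possible because the replicate number is itself the factor compared; the siRNA was the block. The counts of genes higher in replicate 1 and of genes higher in replicate 2 (2286 and 1905) became 616 and 313 with DESeq2, 1094 and 1064 without the siRNA block, 1455 and 1299 with edgeR's expression filter, 1487 and 1245 at an adjusted p under 0.01, and 203 and 559 with a log2 difference of at least 1. With limma on the deposited TPM 0 and 0 passed, although 1868 and 2973 had an unadjusted p under 0.05. Leaving out 1 library, without the block, gave 641 to 1755 and 653 to 1577, lowest without siLINC01186 replicate 1 (641 and 653) and also low without siNC replicate 1 (753 and 755), while 1501 were higher in replicate 1 without siLINC01186 replicate 2. Among genes with a mean log2 CPM of at least 3, 2037 and 1096 were called. With level trend offsets, added with this last count after the data were seen, they were 1741 and 1976.

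Of 41 list medians 17 were above 0, and 10 with limma on TPM, 9 with level trend offsets and 10 within siNC alone. Medians of heat-shock chaperones (0.31 to 0.50), actin genes (0.14 to 0.40), interferon-stimulated genes (-0.52 to -0.21) and p53 targets (-0.33 to -0.21) kept their sign in all 17 settings. Of 109 named genes called, 74 kept call and direction with DESeq2, 92 without the block, 98 with the expression filter and 0 with limma on TPM. Leaving out a library turned the IGFBP3 difference (-1.47 to 0.61, above 0 without siNC replicate 1 and, at 0.11, without siLINC01186 replicate 2), the IGFBP1 difference (-0.27 without siLINC01186 replicate 1, up to 1.502) and the CA9 difference (-2.34 to 0.10, above 0 without siNC replicate 1). Within 1 siRNA, IGFBP3 (0.44), CA9 (0.10) and NDRG1 (0.0051) in siLINC01186 and IGFBP1 (-0.29) and LDHA (-0.020) in siNC had the opposite sign. The causes were not tested.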

Other observations

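Ribosome biogenesis, FOXO targets and tight junction genes were put together as lists after single genes of each had been seen among the differences, so their counts describe the data and support nothing. Of 45 genes that build ribosomes in the nucleolus 39 were higher in replicate 1 and 0 were lower, with a median of 0.56, and 28 were past all 4 fits. CCDC86, a nucleolar protein gene, had 240, 247, 112 and 121 CPM in siNC replicate 1, siLINC01186 replicate 1, siNC replicate 2 and siLINC01186 replicate 2, a difference of 1.07 ± 0.11 (edgeR, adjusted p = 9.73e-20). RRP9, a factor of early ribosomal RNA processing, had 72.8, 78.3, 31.7 and 36.6 CPM (1.15), and NOLC1, a nucleolar chaperone gene, 365, 406, 208 and 224 CPM (0.84). None of the 3 overlapped between replicates. SBDS, which matures the large subunit, had 117, 135, 73.5 and 45.1 CPM, higher in replicate 1 by 0.67 in siNC and 1.58 in siLINC01186. The median of the list was 0.62 within siNC and 0.50 within siLINC01186, while the ribosomal protein genes themselves had a median of -0.02.

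Of 24 FOXO targets, which are silenced by insulin signalling, 12 were lower and 2 higher in replicate 1 (median -0.45), PCK1, TXNIP and BMF among the lower ones. SELENOP, a selenium transport protein gene, had 2.93, 4.41, 12.6 and 16.8 CPM (-2.01 ± 0.20, adjusted p = 1.58e-20). Of 22 genes of tight junctions and polarity 10 were lower and 1 was higher in replicate 1 (median -0.49). F11R, junctional adhesion molecule A, had 9.55, 8.40, 32.5 and 36.5 CPM (-1.94 ± 0.16, adjusted p = 3.01e-30), ANK3, a membrane scaffold gene, 6.81, 6.30, 25.8 and 23.5 CPM (-1.91), and TJP3, a zonula occludens gene, 3.16, 5.39, 17.7 and 16.9 CPM (-2.04). USH1C, a scaffold of epithelial microvilli, had 19.3, 22.0, 63.8 and 58.8 CPM (-1.57), and CGN, cingulin, 3.88, 2.94, 8.30 and 6.25 CPM (-1.09). None of these 5 genes overlapped between replicates.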
